A study of Homo sapiens with 8 samples.

Results

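Peaks at the ends of protein-coding genes were intervals counted in RNA recovered with an antibody to N4-acetylcytidine (ac4C), a modified base of RNA. They were chosen by position and by measured counts: each overlapped exactly 1 protein-coding gene span of GRCh38, lay within 500 bp of either end of that span, and had a mean raw count of 50 or more over the 4 libraries. The rule kept 1292 of 31395 intervals, in 1218 genes, of which 71 had more than 1. Readthrough genes, whose annotated spans join neighbouring genes, were set aside, and counting them as genes left 1272 intervals. A further 512 intervals near gene ends had mean counts under 50. Strand was taken from a RefSeq table of start windows, which gave it for 15843 of 20037 protein-coding genes. Of the 1292 peaks, 883 lay at a transcript end, 191 at a transcript start and 8 within 500 bp of both, and 210 lay in genes whose strand is unknown here. The peaks just inside the count limit, in AMOTL1, RSAD1 and ZSCAN21, had mean counts of 50, 50 and 50.25, and those just outside, in PCLAF, MCM3AP and EIF2S3, had 49.75 each. Just inside the distance limit, peaks in RTEL1, CLCN7 and APEX1 lay 500, 498 and 494 bp from an end, and just outside, peaks in DUS1L, CENPF and TMEM97 lay 502, 507 and 508 bp away.

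The samples came from HOS, a human osteosarcoma line, and from its derivative 143B. The compared libraries were 143B sgNAT10 (cells in which the gene NAT10 was targeted), 143B NC (control cells), HOS sgNAT10 and HOS NC, with 1 acRIP library each. Per the labels, all 4 came from TRIzol-extracted, poly(A)-selected mRNA that was fragmented and then bound by the anti-ac4C antibody. Whether the edited cells were a clone or a pool, and the guide sequence, are not given in the sources used here. The deposited tables name the cell line and genotype of each column but not the assay, and the columns were taken as acRIP since the tables' own names speak of RIP. The 4 input samples were not used here. A lower count may therefore mean less RNA or less of it recovered, and in bulk libraries fewer cells with a transcript and less of it per cell cannot be told apart.

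NAT10 is the acetyltransferase that writes ac4C into ribosomal RNA and transfer RNA, and ac4C has also been reported in messenger RNA. The transcript start of an mRNA carries the cap and the 5′ untranslated region, where ribosomes load. The transcript end carries the last coding or 3′ untranslated bases and the poly(A) tail, by which poly(A) selection captures the molecule.

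The start windows below show the genomic sequence beside 5 transcript-start peaks that the results turn on. Each is 80 bases of RefSeq sequence on GRCh38.p14, written 5′ to 3′ on the gene's strand, and capitals mark the first 30 transcribed bases. They are given for genes named by a fixed rule whose peak overlapped the RefSeq window of 250 bases before and 50 after the start. UBB was left out, since its peak lies upstream of the start sites of its windows.
CDC42: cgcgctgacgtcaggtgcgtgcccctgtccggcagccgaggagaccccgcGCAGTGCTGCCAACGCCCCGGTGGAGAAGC
HPCAL1: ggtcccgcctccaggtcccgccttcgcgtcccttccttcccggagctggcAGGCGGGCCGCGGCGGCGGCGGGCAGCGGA
RASGEF1C: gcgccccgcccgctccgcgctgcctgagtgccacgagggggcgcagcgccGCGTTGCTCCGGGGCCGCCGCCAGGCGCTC
RPL13A: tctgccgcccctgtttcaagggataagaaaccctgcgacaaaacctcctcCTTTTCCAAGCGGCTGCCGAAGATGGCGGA
RPS21: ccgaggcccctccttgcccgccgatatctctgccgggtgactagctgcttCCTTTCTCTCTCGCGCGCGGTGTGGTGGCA
The CDC42 window lies on the plus strand at chr1:22052659-22052738, that of HPCAL1 on the plus strand at chr2:10302854-10302933, and that of RASGEF1C on the minus strand at chr5:180209182-180209261. The RPL13A and RPS21 windows lie on the plus strand at chr19:49487558-49487637 and chr20:62387053-62387132. The peaks began 27, 5, 3, 31 and 29 bp from the annotated starts of CDC42, HPCAL1, RASGEF1C, RPL13A and RPS21, so they lay inside the transcripts. The RPL13A and RPS21 transcripts open with a run of pyrimidines, the feature by which translation of ribosomal protein mRNAs is regulated.

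Across all 195 genes with a transcript-start peak (peaks near both ends included), the start windows were rich in G and C, with a median of 69.0%, against 62.7% in 15843 protein-coding genes. Of the 199 peaks at starts or near both ends, 64 overlapped the window, so the windows mostly describe sequence beside the peaks. The GC box (GGGCGG or its complement CCGCCC, anywhere in the 300 bases) was in 76.4% of those windows, against 58.5% of all. Genes with a transcript-end peak had a GC box in 73.1%, close to the share of start-peak genes. Their median of 65.8% G and C lay between those of start-peak genes and of all genes. The repeat CNNCNNCNNCNN, of the kind reported around ac4C, was in the first 50 transcribed bases of 30.8% of the genes with a start peak and of 31.3% of all genes, read on the transcribed strand. CTTTTC or CTTTCT lay within the first 20 transcribed bases of 14 of 42 cytosolic ribosomal protein genes with a gene-end peak, against 1.73% of all genes. The motifs were chosen after the peaks were seen.

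Totals over all intervals ranged from 20107718 to 24785306 counts. Over the 1292 peaks, the Spearman correlation of counts was 0.632 to 0.768 between 143B sgNAT10 and the other libraries, and 0.876 to 0.920 among those others, so 143B sgNAT10 stood apart. HOS shifts use no counts of that library, but the peaks were chosen on a mean count that includes it. Mesenchymal markers had counts in 5 of 10 genes, led by VIM, and the list summed to 8018 (143B sgNAT10), 10524 (143B NC), 22225 (HOS sgNAT10) and 18479 (HOS NC). COL1A1, COL1A2, THY1, SPP1 and FN1 had no assigned interval. Of 4 epithelial markers only CDH1 had intervals, with 812 counts in HOS sgNAT10 and 5 to 30 in the others. Blood, endothelial and neural markers had 2 to 93 counts per list and library.

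The peak in NAT10 itself, 101 bp from the transcript end (chromosome 11, 34146656 to 34146807), had 130 counts in 143B sgNAT10 and 65 in 143B NC, and 63 counts in HOS sgNAT10 against 180 in HOS NC. As CPM, counts brought to a common library size with TMM factors, these were 4.61 CPM in 143B sgNAT10 and 3.26 in 143B NC, a log2 shift of 0.50 (95% counting interval 0.06 to 0.95), and 2.73 CPM in HOS sgNAT10 and 9.94 in HOS NC, a shift of -1.85 (-2.30 to -1.44). The NAT10 peak was thus lower in the library labelled sgNAT10 in HOS and higher in 143B. Other transcript-end peaks had the same directions in general, so the peak does not check the label by itself. All shifts below are sgNAT10 over NC on the log2 CPM scale with a prior count of 1, and their intervals cover counting error only. With 1 library per line and genotype, no shift within a line has a replicate check.

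Where strand was known, the transcript end and the transcript start separated in 143B. Transcript-end peaks were higher in 143B sgNAT10 than in 143B NC, with a median shift of 0.81 (quartiles 0.37 and 1.15) and 757 of 883 higher. Transcript-start peaks were lower, with a median of -1.23 (-1.86 and -0.66) and 27 of 191 higher. These signs were kept under all 4 scalings. In HOS both kinds were lower, with medians of -0.69 (-1.08 and -0.27) at transcript ends, where 132 of 883 were higher, and -0.33 (-0.74 and 0.23) at starts, where 61 of 191 were higher. With library totals alone the HOS median was -0.11 at ends and turned to 0.25 at starts. The medians over all 24467 peaks tested were 0.05 in 143B and 0.31 in HOS. Counts there were lower, with a median mean count of 34.75 against 158 for gene-end peaks. A closer match is the 5069 internal peaks, defined below, which were held to the same minimum count. Their medians were -0.89 in 143B and -0.02 in HOS. A median below 0 in 143B was therefore not particular to transcript starts. The 210 peaks of unknown strand had medians of 0.67 in 143B and -0.50 in HOS, close to transcript ends. That HOS value turned to 0.07 with library totals alone.

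**Figure D1:**
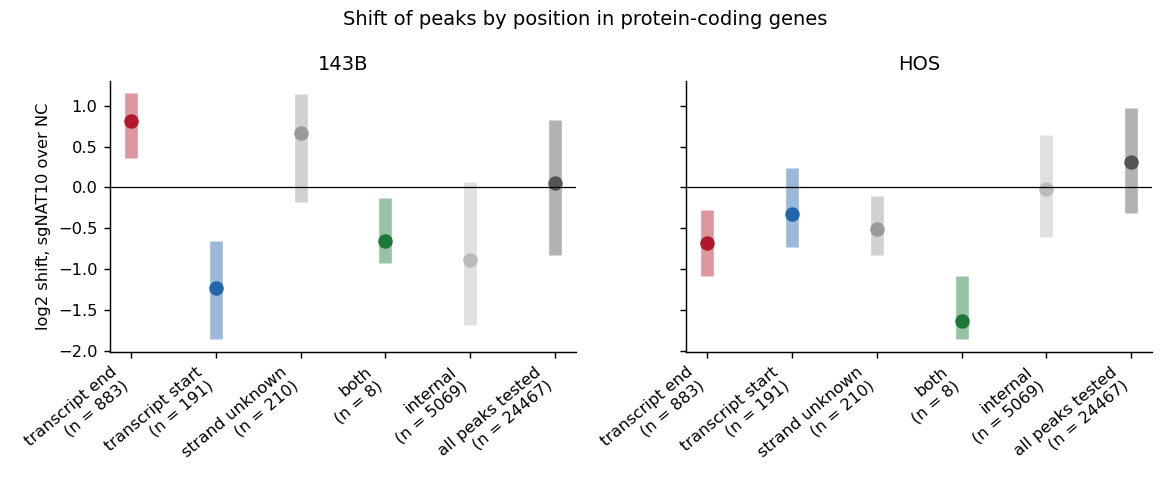
Median (point) and quartiles (bar) of the log2 shift, sgNAT10 over NC, for peaks by position in protein-coding genes and for all peaks tested, in 143B (left) and HOS (right). In 143B the transcript-end median of 0.81 and the transcript-start median of -1.23 lie on either side of 0, while in HOS the medians are -0.69 and -0.33.

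Counted by 2-fold, 389 gene-end peaks (30.1%) were higher and 201 (15.6%) lower in 143B sgNAT10 than in 143B NC. The background over all peaks tested was 20.1% higher and 21.4% lower. Among 5069 internal peaks, those of protein-coding genes farther than 500 bp from both ends with the same minimum count, it was 9.92% and 46.5%. Transcript ends held 315 of the higher peaks and transcript starts 127 of the lower ones. In HOS sgNAT10, 32 gene-end peaks (2.48%) were higher and 332 (25.7%) lower than in HOS NC, against 24.4% and 8.74% of all peaks tested and 14.8% and 14.5% of internal peaks. With library totals alone this balance reverses, to 108 higher and 81 lower.

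The same peaks are described by their share of counts. Transcript-end peaks held 1.97% of counts in 143B sgNAT10 and 1.27% in 143B NC, and 1.78% in HOS sgNAT10 and 1.55% in HOS NC. The 95% Wilson interval of each share spans 1.961% to 1.972%, 1.267% to 1.277%, 1.772% to 1.784% and 1.542% to 1.551%, in that order. In HOS this share was higher in sgNAT10 than in NC, though the median shift of the same peaks was -0.69. Internal peaks held 6.04% of counts in 143B sgNAT10 and 8.12% in 143B NC. In HOS they held 11.9% in sgNAT10 and 7.58% in NC. Per 100 internal counts, which needs no scaling factor, transcript ends had 32.6 counts in 143B sgNAT10 and 15.7 in 143B NC. They had 14.9 in HOS sgNAT10 and 20.4 in HOS NC. This ratio also moves with the internal share. Transcript starts had 3.37 per 100 in 143B sgNAT10 and 3.42 in 143B NC, with 3.22 in HOS sgNAT10 and 4.27 in HOS NC. By this ratio 143B sgNAT10 was the highest of the 4 at transcript ends, while per 100 internal counts HOS NC was the highest at transcript starts. As shares of all counts, transcript starts held 0.204% (95% Wilson interval 0.202% to 0.205%) in 143B sgNAT10 and 0.278% (0.276% to 0.280%) in 143B NC, with 0.384% (0.381% to 0.386%) in HOS sgNAT10 and 0.324% (0.322% to 0.326%) in HOS NC, so by that measure HOS sgNAT10 was the highest. In HOS the transcript-start share was thus higher in sgNAT10 than in NC, though the median shift there was -0.33. The median count per transcript-end peak was 223 in 143B sgNAT10 and 96 in 143B NC. It was 129 in HOS sgNAT10 and 170 in HOS NC. At transcript starts the medians were 95 in 143B sgNAT10 and 161 in 143B NC, with 210 in HOS sgNAT10 and 199 in HOS NC.

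The 143B shift followed the distance from the transcript end over several kilobases. Peaks within 50 bp of the end had a median shift of 0.95 (402 peaks, 94.5% higher in 143B sgNAT10), those at 51 to 100 bp 0.82, those at 101 to 200 bp 0.57 and those at 201 to 500 bp 0.22. Beyond the 500 bp limit the medians were -0.19 at 501 to 1000 bp, -0.82 at 2001 to 5000 bp -1.07 at 10001 to 100000 bp and -0.76 beyond. HOS medians lay between -0.74 and -0.64 over the same first 500 bp, and reached 0.07 at 10001 to 100000 bp and 0.23 beyond. From the transcript start, 143B medians stayed between -1.37 and -0.75 over all distance bins, and HOS medians between -0.69 and 0.25. Inputs were not used here, so ac4C at these positions and recovery of RNA by position in 143B sgNAT10 cannot be told apart.

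**Figure D2:**
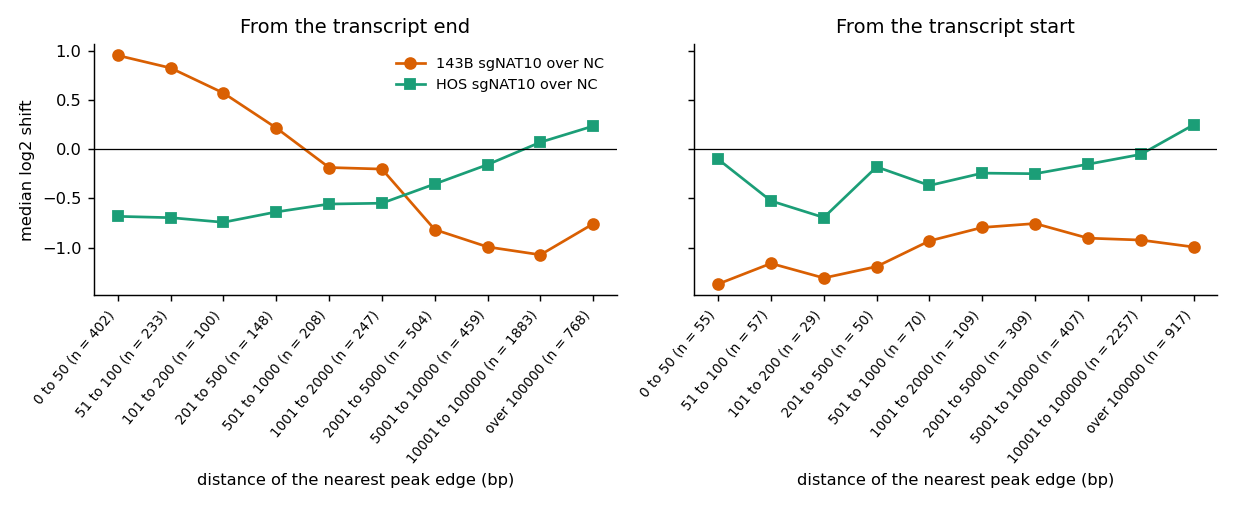
Median log2 shift, sgNAT10 over NC, of peaks in bins of distance from the transcript end (left) and from the transcript start (right), for 143B (circles) and HOS (squares), with the number of peaks per bin. The 143B line runs from 0.95 within 50 bp of the transcript end to -1.07 at 10001 to 100000 bp and -0.76 beyond, and the HOS line from -0.68 to 0.07 and 0.23.

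Gene-end peaks differed from internal ones in gene size. The 862 genes with a transcript-end peak had a median span of 14639 bp and the 188 with a transcript-start peak 23698 bp, against 60390 bp for the 2775 genes with an internal peak. Peaks at transcript ends lay a median of 55 bp from the annotated end, 71.9% of them within 100 bp, and only 11 reached across it. At transcript starts the median was 82 bp. Median widths were 175 bp at ends and 163 bp at starts, against 198 bp for internal peaks.

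Comparing peaks of the same gene removes differences between genes. In 44 genes with both kinds of peak, the transcript-end peak exceeded the transcript-start peak by a median of 1.63 in 143B (quartiles 0.94 and 2.21), in 40 of 44 genes. The 4 exceptions, singled out after their values were seen, were FAM240C, KMT2B, POLR2A and SLX9. POLR2A, for example, had 143B shifts of -2.96 at the end and -1.78 at the start, and HOS shifts of 0.28 and -0.13. In 27 of the 44 genes the end was higher and the start lower in 143B sgNAT10 than in 143B NC, as were 4 of 44 in HOS sgNAT10 relative to HOS NC. In HOS the same difference was 0.10 (-0.16 and 0.41), above 0 in 27 of 44 genes. Over internal peaks of their gene, transcript-end peaks had a median excess of 1.35 in 143B (above 0 in 262 of 277 genes) and 0.11 in HOS (166 of 277). Transcript-start peaks lay at -0.36 relative to internal peaks of their gene in 143B, with 31 of 97 above 0, and at -0.05 in HOS, with 40 of 97. The shifts at the start and the end of a gene had a Pearson correlation across the 44 genes of 0.43 in 143B and 0.81 in HOS, where both peaks of a gene share their 2 libraries. Genes are not independent replicates, and these values describe the libraries.

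**Figure D3:**
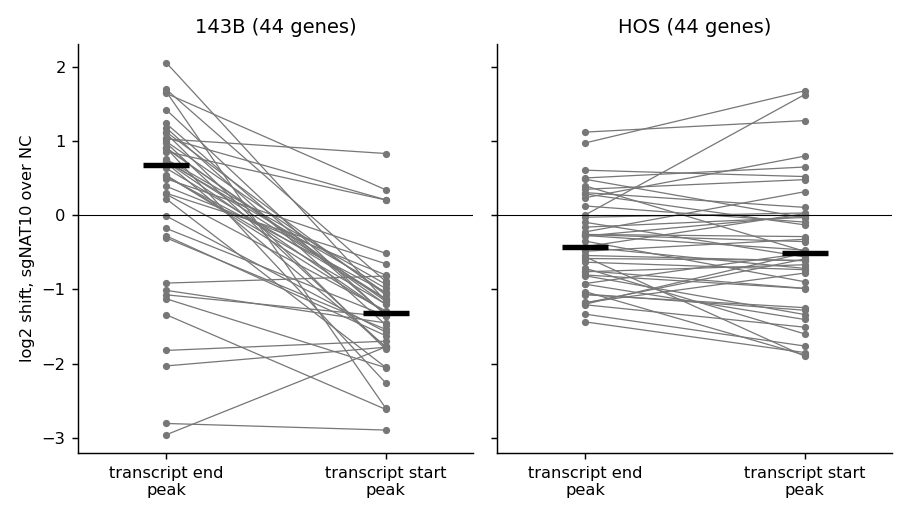
Log2 shift, sgNAT10 over NC, of the transcript-end and the transcript-start peak of the same gene, 1 line per gene, in 143B (left) and HOS (right), with black bars at the medians over 44 genes. In 143B most genes lie above 0 at the transcript end and below 0 at the transcript start (medians 0.67 and -1.32), and in HOS the lines run nearly level (-0.43 and -0.51).

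Genes with both peaks were named by the mean count of the lesser-counted of their peaks. RPS21, a protein of the small ribosomal subunit, led by that measure. Its transcript-end peak (chromosome 20, 62388247 to 62388504) had 6039 counts in 143B sgNAT10 and 2079 in 143B NC, a shift of 1.04 (0.97 to 1.11), and 3253 in HOS sgNAT10 and 3063 in HOS NC, a shift of -0.26. Its transcript-start peak (62387132 to 62387462), beside the window shown, had 4405 counts in 143B sgNAT10 and 2705 in 143B NC, a shift of 0.21, and 4256 in HOS sgNAT10 and 4277 in HOS NC, a shift of -0.36. Both peaks were thus higher in 143B sgNAT10, the end more than the start.

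RPL13A, of the large ribosomal subunit, and UBB, which encodes ubiquitin, showed opposite directions at their ends in 143B. The RPL13A transcript-end peak had 2102 counts in 143B sgNAT10 and 1040 in 143B NC (shift 0.52), and 2313 in HOS sgNAT10 and 1941 in HOS NC (-0.10). Its transcript-start peak had 833 counts in 143B sgNAT10 and 1212 in 143B NC (-1.04), and 1866 in HOS sgNAT10 and 2163 in HOS NC (-0.56). The UBB transcript end had 2908 counts in 143B sgNAT10 and 1430 in 143B NC (0.53), and 1956 in HOS sgNAT10 and 2579 in HOS NC (-0.75). The UBB transcript start had 638 counts in 143B sgNAT10 and 1038 in 143B NC (-1.20). It had 1182 in HOS sgNAT10 and 1838 in HOS NC (-0.99). That UBB peak lay 375 bp from the start of the gene span, upstream of the start sites in its RefSeq windows. RPL35 resembled RPS21, with 143B shifts of 0.85 at the end and 0.34 at the start, and HOS shifts of -0.26 and -0.35. The RPL35 start peak lay 490 bp from the annotated start, near the distance limit, against 29 bp for RPS21. Ribosomal protein and ubiquitin genes have near-identical copies elsewhere in the genome, and how reads with several matches were counted is not given in the sources used here. With library totals alone, the HOS shifts of RPS21, RPL13A and RPL35 turn positive.

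HPCAL1, which encodes a neuronal calcium sensor protein, had start and end peaks with different shifts in each line. Its transcript-start peak, 1740 bp wide, had 142 counts in 143B sgNAT10 and 614 in 143B NC, a shift of -2.60 (-2.88 to -2.34), and 1808 in HOS sgNAT10 and 444 in HOS NC, a shift of 1.67 (1.52 to 1.83). Its transcript-end peak had 101 counts in 143B sgNAT10 and 22 in 143B NC (1.66), and 86 in HOS sgNAT10 and 34 in HOS NC (0.97). The start peak was therefore lower in 143B sgNAT10 and higher in HOS sgNAT10, while the end peak was higher in both.

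**Figure D4:**
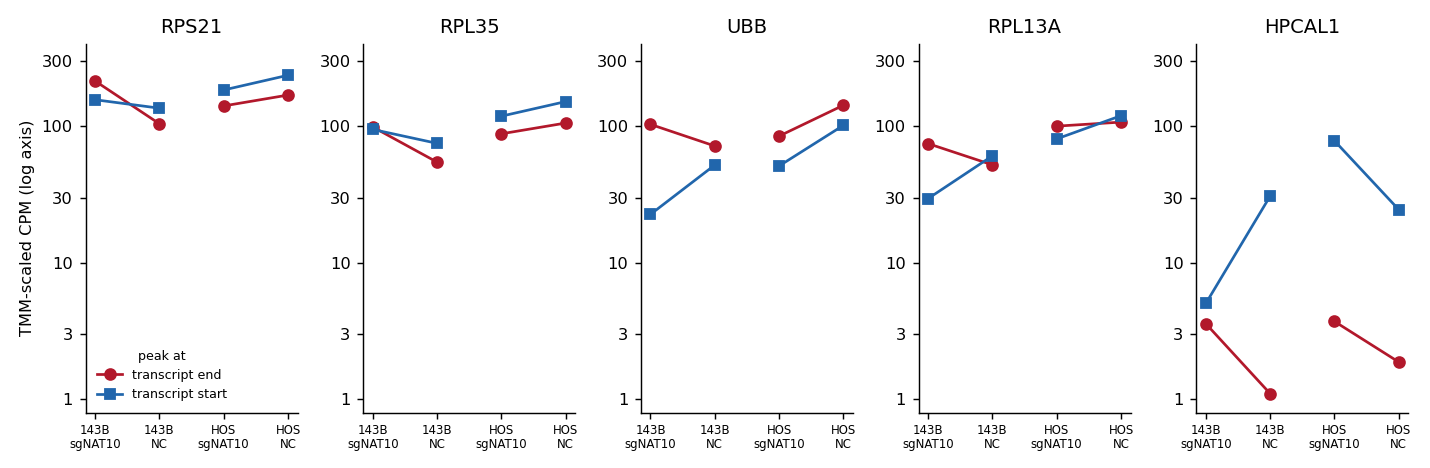
TMM-scaled CPM (log axis) of the transcript-end peak (circles) and the transcript-start peak (squares) of RPS21, RPL35, UBB, RPL13A and HPCAL1 in 143B sgNAT10, 143B NC, HOS sgNAT10 and HOS NC, 1 library per point and lines joining the libraries of a cell line. In 143B the transcript-end points are higher in sgNAT10 for all 5 genes, and the transcript-start points of UBB, RPL13A and HPCAL1 are lower.

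Among transcript-start peaks, 26 of 191 (13.6%) were at least 2-fold lower in both lines, where the background over all peaks tested was 1.57%. Among internal peaks 4.60% were. At transcript ends 3 of 883 (0.340%) were. Line by line, 66.5% of transcript-start peaks were at least 2-fold lower in 143B and 17.3% in HOS. Whether the joint share exceeded what these separate shares give was not tested. With library totals alone, gene-end peaks at least 2-fold lower in HOS fell from 332 to 81. Peaks lower in both lines were named by the smaller of their 2 shifts. CDC42, the small GTPase of cell polarity, had 31 counts in 143B sgNAT10 and 68 in 143B NC, and 57 in HOS sgNAT10 against 158 in HOS NC, shifts of -1.59 (-2.29 to -0.998) and -1.80 (-2.29 to -1.38). RASGEF1C, a guanine nucleotide exchange factor gene, had 14 counts in 143B sgNAT10 and 133 in 143B NC (-3.63), and 30 in HOS sgNAT10 and 72 in HOS NC (-1.58). KIAA2013 had 85 counts in 143B sgNAT10 and 173 in 143B NC (-1.51), and 117 in HOS sgNAT10 and 246 in HOS NC (-1.42). SLC35E1, of the solute carrier family, had 43 in 143B sgNAT10 and 97 in 143B NC (-1.64), and 84 in HOS sgNAT10 and 180 in HOS NC (-1.44). These 4 peaks were lower in sgNAT10 in each line, and all lay within 122 bp of the annotated start. The remaining named peak, 392 bp from the transcript end of the ribosome assembly factor gene MRTO4, had 39 counts in 143B sgNAT10 and 111 in 143B NC (-1.97), and 33 in HOS sgNAT10 and 217 in HOS NC (-3.03).

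The transcript-start peaks with the most counts were those of RPS21, RPL37A, RPL35, MT2A and PCBP1. MT2A encodes a metallothionein, a metal-binding protein, and its start peak had 1636 counts in 143B sgNAT10 and 2539 in 143B NC (-1.13), and 3483 in HOS sgNAT10 and 3035 in HOS NC (-0.15). PCBP1, which encodes a protein that binds C-rich RNA, had 675 in 143B sgNAT10 and 1391 in 143B NC (-1.54), and 2712 in HOS sgNAT10 and 3029 in HOS NC (-0.51), and its peak also overlaps the antisense gene PCBP1-AS1. RPL37A, whose peak lay 443 bp from the annotated start, had 143B and HOS shifts of 0.43 and -0.25. With library totals alone the HOS shifts of these 5 peaks turn positive. JUN, an immediate early transcription factor gene, had 252 counts at its start in 143B sgNAT10 and 458 in 143B NC (-1.36), and 810 in HOS sgNAT10 and 839 in HOS NC (-0.40, turning to 0.18 with library totals alone).

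The pattern of higher in 143B and lower in HOS by 2-fold in each was held by 95 of 883 transcript-end peaks (10.8%). It was held by 1.73% of all peaks tested, 1.54% of internal peaks and 1 of 191 transcript-start peaks. Line by line, 35.7% of transcript-end peaks were at least 2-fold higher in 143B and 28.8% at least 2-fold lower in HOS. Whether the joint share of transcript-end peaks exceeded what these separate shares give was not tested. The HOS part depends on scaling, since 2-fold lower gene-end peaks fell from 332 to 81 with library totals alone. TFRC, the transferrin receptor that imports iron, had 486 counts in 143B sgNAT10 and 90 in 143B NC, a shift of 1.92 (1.61 to 2.28), and 47 in HOS sgNAT10 and 173 in HOS NC, a shift of -2.21 (-2.73 to -1.76). FDPS, the farnesyl diphosphate synthase of the sterol pathway, had 174 counts in 143B sgNAT10 and 35 in 143B NC (1.79), and 39 in HOS sgNAT10 and 114 in HOS NC (-1.87). NDC1, a membrane protein of the nuclear pore, had 136 in 143B sgNAT10 and 20 in 143B NC (2.22), and 25 in HOS sgNAT10 and 65 in HOS NC (-1.69). JPT1 had 130 in 143B sgNAT10 and 28 in 143B NC (1.69), and 27 in HOS sgNAT10 and 72 in HOS NC (-1.73). Each lay within 39 bp of its transcript end, and the FDPS peak also overlaps the antisense gene RUSC1-AS1. The start peak of the keratin gene KRT75, with 55 counts in 143B sgNAT10, 11 in 143B NC, 47 in HOS sgNAT10 and 141 in HOS NC, had shifts of 1.74 and -1.91.

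**Figure D5:**
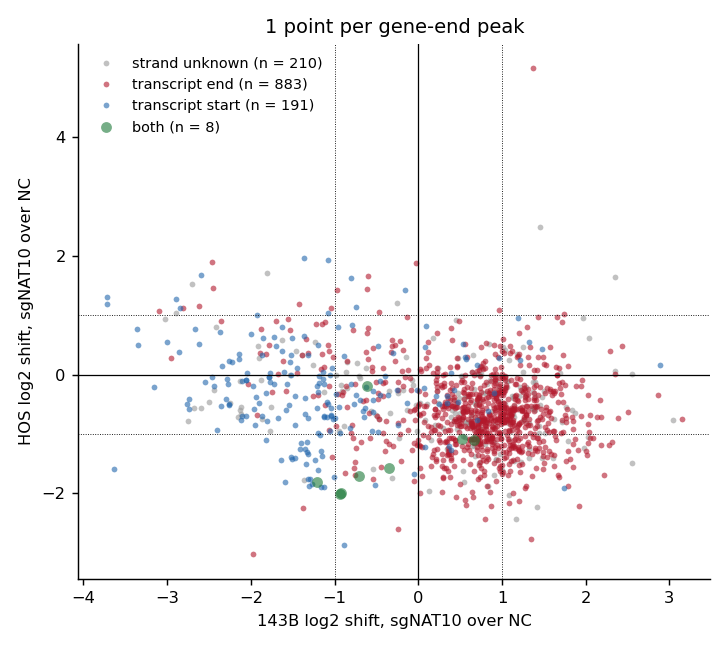
Log2 shift, sgNAT10 over NC, in 143B (x axis) and HOS (y axis), 1 point per gene-end peak, coloured by position, with dotted lines at 2-fold. Transcript-end peaks gather to the right of 0 and below it, transcript-start peaks to the left, and all 8 peaks near both ends lie below 0 on the HOS axis.

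Wide peaks had the opposite directions to most transcript-end peaks. Of 43 transcript-end peaks at least 2-fold lower in 143B, 18 were wider than 500 bp and their median distance from the end was 259 bp. Of the 315 at least 2-fold higher, 1 was that wide and the median distance was 41 bp. The 32 transcript-end peaks over 500 bp wide had a median 143B shift of -1.10 (7 above 0) and a median HOS shift of 0.34 (22 above 0). HMGA1, a chromatin protein gene and the gene-end peak with the most counts, had a 1401 bp peak with 7575 counts in 143B sgNAT10 and 19724 in 143B NC (-1.88), and 35200 in HOS sgNAT10 and 16233 in HOS NC (0.77). POLR2A, the largest subunit of RNA polymerase II, had 1364 in 143B sgNAT10 and 7521 in 143B NC (-2.96), and 9128 in HOS sgNAT10 and 5877 in HOS NC (0.28). SEC14L1 had 9718 in 143B sgNAT10 and 18073 in 143B NC (-1.39), and 10693 in HOS sgNAT10 and 6648 in HOS NC (0.33). All 3 were lower in 143B sgNAT10 and higher in HOS sgNAT10, and with DESeq2-type size factors these HOS shifts stayed positive. For comparison, internal peaks of 1000 bp or wider had medians of -2.15 and 0.95. Width was not used to choose the peaks.

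The 5 peaks named as lower in 143B and higher in HOS were the HPCAL1 start above and peaks in MORN1, CREB3L1, SEC24D and WRN. The 7751 bp peak of MORN1 had 324 counts in 143B sgNAT10 and 1260 in 143B NC (-2.45), and 6467 in HOS sgNAT10 and 1849 in HOS NC (1.45). CREB3L1, a membrane-bound transcription factor gene active in bone, had 22 in 143B sgNAT10 and 90 in 143B NC (-2.46), and 206 in HOS sgNAT10 and 43 in HOS NC (1.89). SEC24D, a coat protein of vesicles leaving the endoplasmic reticulum, had 13 in 143B sgNAT10 and 65 in 143B NC (-2.71), and 179 in HOS sgNAT10 and 48 in HOS NC (1.53). WRN, the DNA helicase gene of Werner syndrome, had 29 in 143B sgNAT10 and 74 in 143B NC (-1.81), and 240 in HOS sgNAT10 and 57 in HOS NC (1.71). This pattern by 2-fold was held by 18 gene-end peaks (1.39%), against 6.2% of all peaks tested and 10.7% of internal peaks.

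By 2-fold, 4 gene-end peaks (0.310%) were higher in both lines, against 5.76% of all peaks tested and 0.927% of internal peaks. They were ALK, SEC11C, SMOX and LOC124905351, and the HPCAL1 end above came next. ALK, a receptor tyrosine kinase gene, had 13 counts in 143B sgNAT10 and 3 in 143B NC, a shift of 1.38 whose counting interval of -0.25 to 4.07 includes 0, and 218 in HOS sgNAT10 and 4 in HOS NC, a shift of 5.16 (4.04 to 7.31). The CDH1 intervals named above were high in the same library, and their part in the ALK value was not tested. SEC11C, a signal peptidase subunit, had 130 counts in 143B sgNAT10 and 27 in 143B NC (1.74), and 53 in HOS sgNAT10 and 20 in HOS NC (1.03). SMOX, the spermine oxidase gene, had 33 in 143B sgNAT10 and 8 in 143B NC (1.45), and 268 in HOS sgNAT10 and 37 in HOS NC (2.48). LOC124905351, near the first bases of chromosome 3 (10127 to 10794), had 135 in 143B sgNAT10 and 18 in 143B NC (2.35), and 42 in HOS sgNAT10 and 10 in HOS NC (1.64), and overlaps other annotated genes.

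The 8 peaks within 500 bp of both ends lay in short genes. They were the histone genes H1-2, H2AC11, H3C14, H4C2 and H4C8, whose mRNAs mostly lack a poly(A) tail, and MIF, MRPL41 and MT2A. They were named after their values were seen. H3C14 had 3939 counts in 143B sgNAT10 and 5287 in 143B NC, a shift of -0.92 (-0.98 to -0.86), and 3483 in HOS sgNAT10 and 10828 in HOS NC, a shift of -1.99 (-2.04 to -1.93). The 5 histone peaks lay between -1.20 and -0.35 in 143B and between -2.003 and -1.58 in HOS. MIF, a cytokine gene, had 2506 counts in 143B sgNAT10 and 1236 in 143B NC (0.52), and 1377 in HOS sgNAT10 and 2279 in HOS NC (-1.08), and overlaps its antisense gene MIF-AS1. MRPL41, of the mitochondrial ribosome, had shifts of 0.66 and -1.10. The MT2A peak near both ends had 3517 counts in 143B sgNAT10 and 3805 in 143B NC (-0.61), and 5173 in HOS sgNAT10 and 4637 in HOS NC (-0.19, turning to 0.39 with library totals alone). The histone and MT2A peaks were lower in both lines, while MIF and MRPL41 had the directions of transcript-end peaks. Histone genes also have near-identical copies.

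Gene lists are described by the peaks they held, beside the medians of all gene-end peaks (0.69 in 143B and -0.61 in HOS). By 2-fold, 30.1% of gene-end peaks were higher and 15.6% lower in 143B, and 2.48% higher and 25.7% lower in HOS. All peaks tested had medians of 0.05 and 0.31, with 20.1% higher and 21.4% lower in 143B, and 24.4% and 8.74% in HOS. A list with medians near those of all gene-end peaks shows nothing particular to it. With library totals alone, the HOS shifts of RPLP2, MRPS34 and EEF2 below turn positive. Of 61 peaks in 53 cytosolic ribosomal protein genes, 17 were higher and 2 lower by 2-fold in 143B (median 0.77), and 0 were higher and 1 lower by 2-fold in HOS (-0.31, turning to 0.27 with library totals alone). RPLP2, of the ribosomal stalk, had 6033 counts in 143B sgNAT10 and 2501 in 143B NC (0.77), and 4019 in HOS sgNAT10 and 4269 in HOS NC (-0.44). Of 30 peaks of mitochondrial ribosomal protein genes, 12 were higher and 1 lower by 2-fold in 143B (median 0.91), and 7 were lower by 2-fold in HOS (-0.53, turning to 0.05 with library totals alone). MRPS34 had 986 counts in 143B sgNAT10 and 371 in 143B NC (0.91), and 549 in HOS sgNAT10 and 541 in HOS NC (-0.33). Of 40 peaks of oxidative phosphorylation genes, 18 were higher and 1 lower by 2-fold in 143B (median 0.96), and 5 were lower by 2-fold in HOS (-0.53, turning to 0.05 with library totals alone). UQCRH, a hinge subunit of complex III, had 1400 counts in 143B sgNAT10 and 467 in 143B NC (1.08), and 625 in HOS sgNAT10 and 787 in HOS NC (-0.68).

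Of 21 proteasome peaks, 11 were at least 2-fold higher in 143B (median 1.04), while 7 were at least 2-fold lower in HOS (-0.81). PSMB4, a subunit of the core particle, had 760 counts in 143B sgNAT10 and 243 in 143B NC (1.14), and 281 in HOS sgNAT10 and 475 in HOS NC (-1.11). Of 17 chaperone peaks, 4 were at least 2-fold higher in 143B (median 0.66), while 12 were at least 2-fold lower in HOS (-1.48). Counted by direction alone, all 17 were higher in 143B sgNAT10 and all 17 lower in HOS sgNAT10 than in NC. Of these 17, 16 lay at transcript ends, where 85.7% of all 883 peaks were higher in 143B and 14.9% in HOS. HSP90AA1, the inducible cytosolic HSP90, had 6230 counts in 143B sgNAT10 and 3231 in 143B NC (0.45), and 1836 in HOS sgNAT10 and 6028 in HOS NC (-2.07). HSPA8 had 3126 in 143B sgNAT10 and 1507 in 143B NC (0.55), and 579 in HOS sgNAT10 and 1963 in HOS NC (-2.11). Of 17 peaks of cell cycle and DNA replication genes, 6 were at least 2-fold higher in 143B (median 0.65), while 13 were at least 2-fold lower in HOS (-1.16). MCM7, of the replicative helicase, had 822 in 143B sgNAT10 and 438 in 143B NC (0.41), and 509 in HOS sgNAT10 and 836 in HOS NC (-1.07). These 3 HOS medians stayed below 0 with library totals alone, at -0.23, -0.90 and -0.58.

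Of 14 nucleolar ribosome assembly peaks, 4 were higher and 1 lower by 2-fold in 143B (median 0.60), and 7 were lower by 2-fold in HOS (-1.03). NPM1, a nucleolar chaperone, had 3334 counts in 143B sgNAT10 and 1575 in 143B NC (0.58), and 2151 in HOS sgNAT10 and 2578 in HOS NC (-0.61). Of 17 translation factor peaks, 4 were higher and 1 lower by 2-fold in 143B (median 0.83), and 4 were lower by 2-fold in HOS (-0.59). EEF2, the translocation factor, had 2784 counts in 143B sgNAT10 and 1044 in 143B NC (0.92), and 2499 in HOS sgNAT10 and 2165 in HOS NC (-0.14). Of 22 peaks of splicing factor and hnRNP genes, 4 were higher and 3 lower by 2-fold in 143B (median 0.75), and 5 were lower by 2-fold in HOS (-0.80). SNRPB, of the core spliceosomal particles, had 1309 in 143B sgNAT10 and 524 in 143B NC (0.82), and 572 in HOS sgNAT10 and 1091 in HOS NC (-1.28). Of 8 sterol and fatty acid synthesis peaks, 6 were at least 2-fold higher in 143B (median 1.17), while 4 were at least 2-fold lower in HOS (-1.07). ACLY, which makes cytosolic acetyl-CoA, had 319 in 143B sgNAT10 and 98 in 143B NC (1.20), and 81 in HOS sgNAT10 and 183 in HOS NC (-1.52). Of 9 glycolysis peaks, 2 were at least 2-fold higher in 143B (median 0.69), while 4 were at least 2-fold lower in HOS (-0.99). ENO1, enolase, had 4059 in 143B sgNAT10 and 2570 in 143B NC (0.16), and 2673 in HOS sgNAT10 and 5475 in HOS NC (-1.39).

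Of 8 extracellular matrix and integrin peaks, 5 were at least 2-fold higher in 143B (median 1.20), while 3 were at least 2-fold lower in HOS (-0.64). CCN2, a matrix protein gene and a target of YAP, had 599 counts in 143B sgNAT10 and 183 in 143B NC (1.21), and 117 in HOS sgNAT10 and 405 in HOS NC (-2.13), and its peak also overlaps CCN2-AS1. Of 21 actin and tubulin cytoskeleton peaks, 3 were higher and 3 lower by 2-fold in 143B (median 0.35), and 6 were lower by 2-fold in HOS (-0.66). ACTG1, cytoplasmic actin, had 4259 in 143B sgNAT10 and 2348 in 143B NC (0.36), and 2598 in HOS sgNAT10 and 4285 in HOS NC (-1.07). Solute carriers (10 peaks) had medians of 0.72 and -0.73, with SLC25A5 at 0.20 and -0.93. ZNF genes (9 peaks) had 0.70 in 143B and -0.40 in HOS (turning to 0.17 with library totals alone).

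The remaining lists held 11 peaks or fewer. The 11 histone peaks, which include the 5 above, had medians of -0.35 in 143B, with 1 higher and 1 lower by 2-fold, and -1.58 in HOS, with 9 lower by 2-fold. The 4 histone peaks at transcript ends had medians of 0.88 in 143B and -1.38 in HOS, so in 143B their median had the sign of other transcript ends, while the 5 peaks near both ends were all lower. The 6 immediate early gene peaks had -0.80 in 143B, with 3 lower by 2-fold, and -0.35 in HOS (turning to 0.23 with library totals alone). Of these 6, 1 lay at a transcript end, 1 at a start and 4 in genes of unknown strand. They are thus not matched by position to all gene-end peaks, most of which lay at transcript ends. IER2 had 558 counts in 143B sgNAT10 and 372 in 143B NC (0.09), and 1355 in HOS sgNAT10 and 872 in HOS NC (0.28). The 11 peaks of amino acid synthesis and ATF4 target genes had 0.23 in 143B, with 3 higher and 1 lower by 2-fold, and 0.35 in HOS, with 1 higher by 2-fold. PHGDH, the first enzyme of serine synthesis, had 1956 counts in 143B sgNAT10 and 1051 in 143B NC (0.40), and 4207 in HOS sgNAT10 and 2212 in HOS NC (0.58). GARS1, a tRNA synthetase gene, had 201 in 143B sgNAT10 and 245 in 143B NC (-0.78), and 1007 in HOS sgNAT10 and 469 in HOS NC (0.75). The 8 peaks of genes reported elsewhere as ac4C targets had 0.26 in 143B, with 2 higher and 3 lower by 2-fold. In HOS they had -1.14, with 4 lower by 2-fold. These 8 had medians with the signs of all gene-end peaks, but not their 143B balance of more higher than lower by 2-fold. Among them CCND1, which encodes cyclin D1, had 1351 counts in 143B sgNAT10 and 906 in 143B NC (0.08), and 956 in HOS sgNAT10 and 1269 in HOS NC (-0.76).

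The change between genotypes over both lines was tested on all 24467 peaks that passed a filter on low counts, with the edgeR quasi-likelihood test and cell line as a block. All 1292 gene-end peaks passed the filter, and 0 of them had an adjusted p under 0.05, where the background was 0 of 24467 peaks (0.0%). The smallest adjusted p among gene-end peaks was 0.981. At an unadjusted p under 0.05 there were 8 gene-end peaks (0.619%), 3 higher and 5 lower, where the background was 945 peaks (3.86%). The higher ones were ALK, LOC124905351 and SMOX, and the lower ones GIGYF1, RASGEF1C, H3C14, MRTO4 and FJX1. DESeq2 and limma-trend on the same design gave 0 gene-end peaks at the adjusted threshold. At an unadjusted p under 0.05 DESeq2 gave 36 of 1292 gene-end peaks, 3 higher and 33 lower, where the background was 500 of 24467 peaks. Limma-trend gave 10, 3 higher and 7 lower, where the background was 1090 of 24467 peaks. In edgeR the ALK estimate was 3.76 on the log2 scale with an SE of 1.16 (adjusted p = 0.981), and ALK was higher in 2 of 2 lines, and MRTO4, at -2.53 with an SE of 0.91 (adjusted p = 0.981), was lower in 2 of 2. That fit keeps 1 residual degree of freedom, and the lines, whose transcript-end medians had opposite signs, were its only repeats. No test of the difference between lines, or of position within a line, was possible with 1 library each.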

How the data were processed

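The deposited values were raw read counts per peak interval, with 1 table for each cell line over a shared set of intervals. Per the submitters' processing notes, reads were placed on GRCh38, and STAR, deepTools, FastQC and SAMtools are listed with no version or role. The peak caller, counting tool, strand setting and handling of reads with several matches are not given in the sources used here, nor whether starts count from 0 or 1. Here, 7 blank columns were left out. Intervals were assigned by overlap with RefSeq gene spans (GRCh38.p14), and strand came from RefSeq start windows, whose sequences are printed. Shifts are differences in log2 CPM (prior count of 1, TMM factors). Counting intervals are exact conditional binomial ones at 95%. Reads carried no stated molecular identifiers, so these intervals cover counting error only. edgeR 4.0.16 tested all peaks kept by filterByExpr (at least 10 counts, at least 15 in total), adjusting by Benjamini-Hochberg, and DESeq2 1.42.0 and limma 3.58.1 were alternatives. The fit was also run on simulated counts with no difference between lines and planted changes of the same direction in both. That simulation does not speak to peaks with opposite directions in the lines. Named peaks were, per pattern of direction, the 5 with the largest smaller shift, the 5 with most counts at starts and at ends, the 3 with most counts per list of 5 or more peaks, the 4 genes with both peaks whose lesser-counted peak had the most counts, and NAT10. The members, lists and this rule were chosen with earlier results of these data known. Alternatives were other scaling factors, a prior count of 5, other count and distance limits, peaks that overlap no other gene, and, both chosen after seeing the data, readthrough genes counted and a width limit.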

Additional observations from a re-analysis of the deposited data

Results flagged for a closer look

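Every item here was singled out because its shift had opposite directions in 143B and HOS, and the difference between the lines was not tested, with 1 library per line and genotype. Differences are the 143B shift minus the HOS shift, in log2 units. For all gene-end peaks the medians differed by 1.29, for transcript-end peaks by 1.497 and for peaks of unknown strand by 1.18.

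Among gene lists the medians differed by 1.44 for mitochondrial ribosomal proteins, 1.49 for oxidative phosphorylation, 1.85 for the proteasome and 1.42 for translation factors. The differences were 1.62 for nucleolar ribosome assembly, 1.81 for the cell cycle, 2.15 for chaperones and 1.68 for glycolysis. For sterol and fatty acid synthesis the difference was 2.24, for splicing factors 1.55, for extracellular matrix and integrins 1.84 and for solute carriers 1.45.

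Single peaks higher in 143B sgNAT10 and lower in HOS sgNAT10 were those of TFRC (4.13), NDC1 (3.91), FDPS (3.66), KRT75 (3.66), JPT1 (3.41), CCN2 (3.34), ACLY (2.71) and PSMB4 (2.25). Single peaks with the opposite directions were those of CREB3L1 (-4.35), the HPCAL1 start (-4.27), SEC24D (-4.24), MORN1 (-3.91) and WRN (-3.51).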

How the results depend on the processing

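The transcript-end and transcript-start medians kept their directions in 143B under all alternatives run, and the transcript-end median did in HOS. The HOS transcript-start median turned to 0.25 with library totals alone. With library totals alone the medians in 143B and HOS were 1.03 and -0.032 for gene-end peaks and 1.15 and -0.11 for transcript ends, with -0.89 for 143B starts, and 664 (143B) and 108 (HOS) gene-end peaks were 2-fold higher and 81 lower in HOS, which reverses the HOS balance of 32 higher and 332 lower. With DESeq2-type size factors they were 0.60 and -0.76 for gene-end peaks, 0.72 and -0.84 for transcript ends and -0.48 for HOS starts, with 21 higher in HOS. Upper quartile factors gave 0.90 and -0.70, 1.02 and -0.78, and -1.02 for 143B starts. In 143B, gene-end and transcript-end medians were 0.74 and 0.91 at a mean count of 20 or more (590 higher in 143B, 50 in HOS), and 0.54 and 0.72 at 100 or more (198 and 17). They were 0.75 and 0.88 within 200 bp (130 lower in 143B, 20 higher in HOS), and 0.56 and 0.74 within 1000 bp (315 and 54). For peaks up to 300 bp wide, an alternative chosen after seeing the data, they were 0.73 and 0.88, with 15 higher in HOS and a within-gene difference of end over start of 2.04 in 143B. The within-gene difference of gene-end over internal peaks was 1.16 in 143B within 200 bp and 0.68 within 1000 bp, and in HOS 0.0020 at a mean count of 20 or more. A prior count of 5, leaving out peaks that overlap another gene, and counting readthrough genes moved none of these values past the limits used. Of 188 shifts of single named peaks, library totals alone, which add 0.34 in 143B and 0.58 in HOS to every shift, changed the sign of 27. With no count filter edgeR passed 1 interval, which is no gene-end peak. The cause of these changes was not tested. Without cell line as a block, edgeR passed 0 gene-end peaks, with 7 at an unadjusted p under 0.05, where the background was 499 of 24467 peaks. The labels give no replicate numbers, so cell line was the one pairing available, and the test uses it. Low counts limit single peaks: the 143B interval of ALK includes 0.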

Other observations

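The 143B shift of transcript-end peaks was smaller where counts were higher. Its median was 1.05 for mean counts of 50 to 99, 0.81 for 100 to 199, 0.72 for 200 to 499, 0.53 for 500 to 999 and 0.48 from 1000. The HOS median stayed between -0.75 and -0.67 up to 999 and was -0.33 from 1000. Mean counts include the compared libraries, so this is a description of them.

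Several well-counted peaks inside the 500 bp limit but away from the transcript end were lower in 143B sgNAT10 than in 143B NC. They are examples of 1 direction: of 148 peaks at 201 to 500 bp, 54.7% were higher, with a median of 0.22. HSP90AA1, at 322 bp, was among the higher ones (0.45). PFN1, profilin, had 1902 counts in 143B sgNAT10 and 2916 in 143B NC (-1.11) at 268 bp, and 3998 in HOS sgNAT10 and 4461 in HOS NC (-0.51, turning to 0.07 with library totals alone). PSAT1, of serine synthesis, had 125 in 143B sgNAT10 and 198 in 143B NC (-1.15) at 384 bp, and 780 in HOS sgNAT10 and 480 in HOS NC (0.35). SCD, the stearoyl-CoA desaturase gene, had 280 in 143B sgNAT10 and 299 in 143B NC (-0.59) at 354 bp, and 517 in HOS sgNAT10 and 632 in HOS NC (-0.64).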
